A study of Mus musculus with 9 samples.

Results

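The B cell identity and plasma cell transcription factors are 10 genes whose products hold a mature B cell in its state or move it towards antibody secretion: Pax5, Ebf1, Bcl6, Prdm1, Irf4, Irf8, Bach2, Pou2af1, Spib and Ikzf3. They were taken as the rows of the count table whose NCBI Gene identifiers map to these mouse symbols, which gave 10 of 27179 gene identifiers. All 10 passed the filter on low counts and were tested among 13129 genes. The data are RNA immunoprecipitation sequencing (RIP-seq) libraries, in which RNA that comes down with a protein is sequenced. B cells were isolated from the spleens of wild-type mice as CD43-negative cells and stimulated for 72 h, per the labels with CD40L at 5 ug/mL, anti-IgM at 10 ug/mL and IL-4 at 20 ng/mL, while the methods name an antibody against CD40 in place of CD40L. The 9 libraries fall into 3 groups of 3: RNA recovered with an antibody to the phosphorylated form of UPF1 (p-UPF1), RNA recovered with normal rabbit IgG, and RNA of the lysate (input). All groups share genotype, cell source and stimulation, no UPF1-deficient cells are among them, and the labels do not give the age of the mice. The methods give an age range for the mice of the study as a whole, which were of both sexes.

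UPF1 is an RNA helicase that drives nonsense-mediated mRNA decay (NMD), and it is phosphorylated when translation ends at a stop codon that the cell reads as premature. Features that favour NMD are an exon junction well downstream of the stop codon, a long 3′ UTR and a translated upstream open reading frame. Pax5 and Ebf1 establish and keep B cell identity, Spib, Irf8 and the coactivator Pou2af1 serve signalling and germinal centre responses, and Bcl6 and Bach2 repress the plasma cell programme. Irf4 and Prdm1 (BLIMP-1) oppose that state and drive plasma cell differentiation, and Ikzf3 (Aiolos) is an Ikaros family factor of late B cells. Whether the mRNAs of such factors are found with p-UPF1 was asked here by comparing the p-UPF1 libraries with both backgrounds.

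The stop codons of the mRNAs on which the results turn are shown because NMD depends in part on what lies downstream of them. Each sequence is given 5′ to 3′ on the mRNA strand, from GENCODE M21 transcripts on GRCm38 (mm10), with the stop codon in capitals.
Spib (chr7:44527947-44527973, minus strand): tcccggcatgtcTGAgcactccgctaa
Irf4 (chr13:30763653-30763679, plus strand): tccatccaagagTGAgaagaaatactc
Irf8 (chr8:120755161-120755187, plus strand): cagatcaccgtcTAAgcctcagtccgg
Pax5, main transcript (chr4:44531494-44531520, minus strand): tatgaccgtcacTGAccctcagagcca
Pax5, NMD-annotated isoforms (chr4:44570005-44570031, minus strand): ctgcaccgacgcTGAcagggatggtgc
In the main transcripts of all 10 factors no exon junction follows the stop codon by more than 50 bases. The last sequence is the stop codon shared by 2 Pax5 isoforms, the only ones of the 10 genes annotated as NMD substrates. In these isoforms 1 exon junction lies 102 bases after that stop codon. The counts are per gene and do not separate isoforms.

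The 10 mRNAs took 0.291% ± 0.00429 of the counts in input, 0.340% ± 0.00647 with IgG and 0.434% ± 0.00222 with p-UPF1 (SD, n = 3). This share is a sum in which abundant mRNAs weigh most, and 6 of the 10 were lower with p-UPF1 than with IgG. Library totals ran from 17372510 to 24945286 counts, and replicates correlated with r of 0.982 to 0.997. Markers of B cells were well above those of other lineages in input, with 9059 to 9201 CPM (counts scaled to a common library size with TMM factors) summed over 6 genes. The 6 T cell markers summed to at most 1.94 CPM in any library, and 0 of them exceeded 1 CPM in input. The myeloid sum of 128 to 139 CPM in input came almost entirely from Adgre1 at 131 CPM, with Lyz2 at 0.196 CPM and Csf1r at 0.0305 CPM. Of the plasma cell markers, Mzb1 was at 228 CPM in input, Sdc1 at 3.87 CPM and Jchain at 3.32 CPM, and Tnfrsf17 had a count of 0 in all groups. Whether the other cells in the preparation contributed to any value was not tested. In bulk RNA of this kind, fewer cells that express a gene and less of its mRNA per cell cannot be told apart.

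In input, the order of mRNA levels per kb of main transcript placed Pou2af1 highest and Prdm1 lowest. Pou2af1 stood at 507 ± 11.3 CPM per kb, followed by Irf8 at 145 ± 2.47, Irf4 at 105 ± 3.38, Spib at 97.8 ± 2.03 and Ikzf3 at 58.8 ± 0.921 (SD, n = 3). Bcl6 was at 15.7 ± 0.336 CPM per kb, Bach2 at 9.98 ± 0.154, Ebf1 at 8.30 ± 0.201, Pax5 at 7.25 ± 0.208 and Prdm1 at 4.09 ± 0.370. No input library of one factor overlapped with those of its neighbour in this order. The order depended on the length used. Divided by the length of all RefSeq exons, Ikzf3 was at 18.2, Bcl6 at 8.38, Pax5 at 7.06, Ebf1 at 6.92 and Bach2 at 2.28 CPM per kb in input, so that Bach2 and Ebf1 both stood below Pax5, while Pou2af1 was again highest (504) and Prdm1 lowest (1.81). In p-UPF1 libraries Spib was at 372 ± 2.74 CPM per kb of main transcript, Irf4 at 312 ± 6.24, Irf8 at 227 ± 1.61 and Pou2af1 at 214 ± 7.98.

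**Figure D1:**
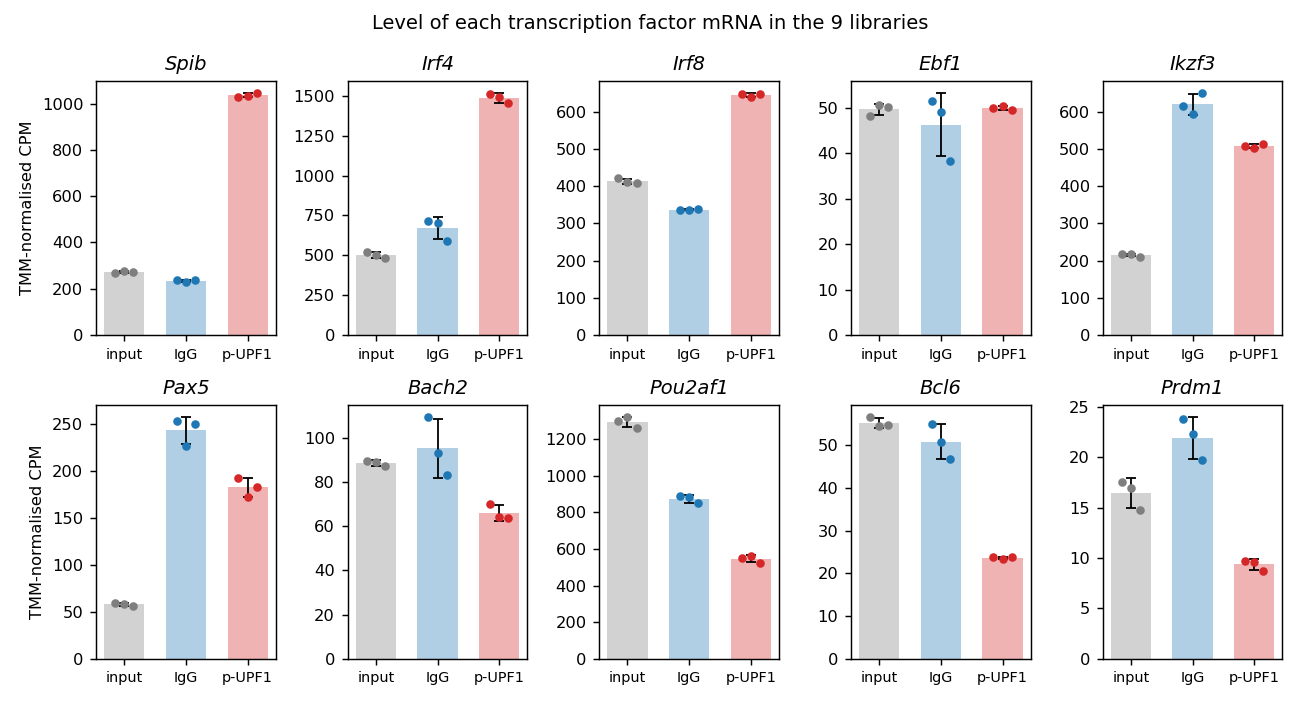
TMM-normalised CPM (y axis, from 0, a separate scale in each panel) of each factor mRNA in input, IgG and p-UPF1 libraries; points are libraries, bars group means and error bars SD (n = 3). Spib, Irf4 and Irf8 were highest in p-UPF1, Pax5, Ikzf3 and Prdm1 in IgG, and Pou2af1 in input.

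Relative to IgG, 3 of the 10 mRNAs were higher in p-UPF1 (Spib, Irf4 and Irf8), 6 were lower (Prdm1, Bcl6, Pou2af1, Bach2, Pax5 and Ikzf3) and Ebf1 did not pass the test. Among all genes tested, 40.4% were higher and 42.2% lower in this comparison at an adjusted P under 0.05, so calls in either direction were common. The median log2 fold change (log2FC) of the 10 was -0.35, against -0.03 over all genes. Relative to input, 5 were higher (Spib, Pax5, Irf4, Ikzf3 and Irf8) and 4 lower (Pou2af1, Bcl6, Prdm1 and Bach2), where 40.8% of all genes were higher and 42.6% lower. The median log2FC over input was 0.33 for the factors and -0.03 for all genes. The p-UPF1 libraries are the same in both comparisons, which are therefore not independent. In these 2 comparisons a log2FC of 0 stands close to the typical RNA of a library, since no spike-in fixes the amount recovered. For IgG over input the median gene was at -0.10. When libraries were scaled instead to equal mitochondrially encoded mRNA, all 10 factors were higher in p-UPF1 than in either background, as was the median gene, by 4.66 over IgG and 5.00 over input. For IgG over input, Ebf1, Bcl6, Irf8 and Spib then also changed sign. The directions given for p-UPF1 are those relative to the typical RNA, and those for IgG over input are relative to 0 after TMM scaling. Values of P are from edgeR's quasi-likelihood fit over all 9 libraries, adjusted over the 13129 genes.

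In the fit made here, none of the 10 mRNAs met the study's combined criterion for p-UPF1-binding RNAs, which 6.25% of all genes met. This criterion asks for a log2FC that reaches 1 against IgG and 2 against input. Both values must also be significant at 0.05 after adjustment. Whether any of the 10 is on the study's own published list of such RNAs was not examined. Spib and Irf4 passed the part set against IgG. Spib came closest on the part set against input, with a log2FC of 1.93 and a 95% interval of 1.85 to 2.003. Pax5 followed with 1.65 over input but was lower than IgG, and Irf4 with 1.57. Irf8 lay just under the minimum over IgG, with 0.94 and an interval of 0.87 to 1.01. With an IgG library as the TMM reference, or with no low-count filter, Spib met both parts. DESeq2 and limma-voom also gave 0 of 10, and so would an unadjusted P, because no factor reached the minimum over input.

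**Figure D2:**
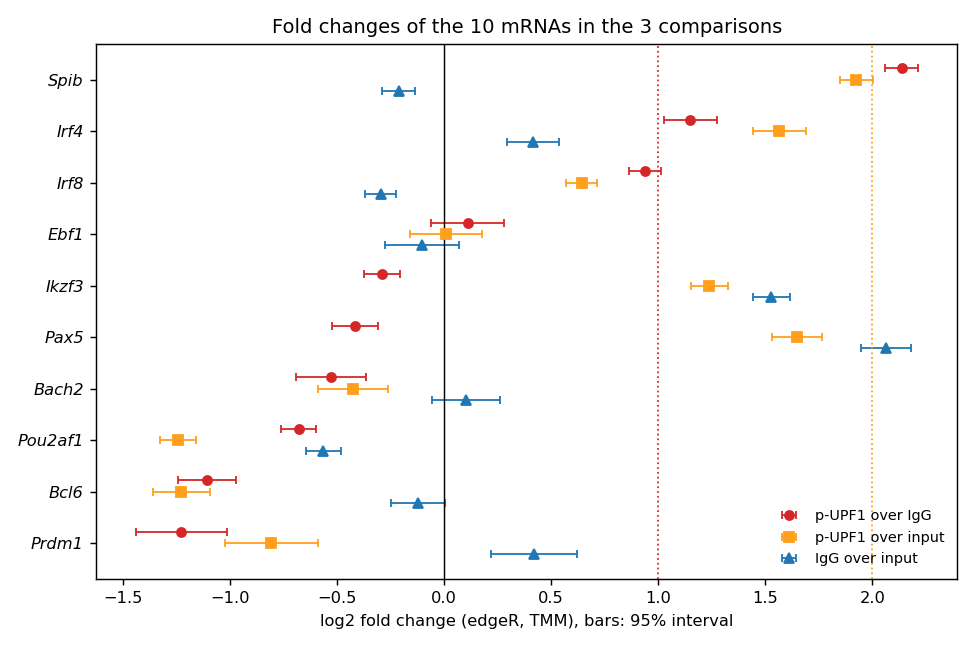
Log2FC (x axis) of each mRNA for p-UPF1 over IgG (circles), p-UPF1 over input (squares) and IgG over input (triangles), with 95% intervals; dotted lines mark the criterion minimums of 1 over IgG and 2 over input. Spib is at 2.14 over IgG and 1.93 over input, and Pax5 and Ikzf3 are the factors with the largest values for IgG over input.

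Spib (gene 272382, chromosome 7, 44525995 to 44532087, minus strand) encodes Spi-B, an Ets factor of B cells related to PU.1, and was the most enriched factor. It was at 1030.3, 1034 and 1045 CPM in the 3 p-UPF1 libraries, at 236, 231 and 239.9 CPM in IgG and at 267, 278 and 274 CPM in input. Every p-UPF1 library was thus far above every library of the other groups, and the IgG libraries were slightly below input. The log2FC over IgG was 2.14 (SE 0.04, adjusted P = 1.68e-17), and over input it was 1.93 (adjusted P = 3.14e-17). IgG over input was -0.21 (adjusted P = 1.32e-04). Of all genes tested, 94.4% had a lower log2FC over IgG than Spib.

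The paralogue Spi1, which encodes PU.1, moved the other way. Its mean was 45.5 CPM in input, 44.3 with IgG and 19.8 with p-UPF1, with a log2FC of -1.16 over IgG (adjusted P = 2.49e-10) and -1.20 over input. The log2 ratio of Spib to Spi1 counts within a library needs no scaling between libraries, and was 2.59 ± 0.06 in input, 2.42 ± 0.11 with IgG and 5.71 ± 0.06 with p-UPF1 (SD, n = 3). The lowest p-UPF1 ratio, 5.67, was above the highest ratio in the other groups, 2.63. This ratio and the others of its kind were chosen after the values were seen and are given as descriptions.

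Pou2af1 (gene 18985, chromosome 9, 51213690 to 51240079, plus strand) encodes OCA-B, the coactivator that Oct factors recruit at immunoglobulin and germinal centre genes. It was at 553, 563 and 524 CPM in p-UPF1, at 890.1, 882 and 850.3 CPM in IgG and at 1298, 1317 and 1261 CPM in input. The 3 groups did not overlap, and the levels fell from input to IgG to p-UPF1. The log2FC was -0.68 over IgG (SE 0.04, adjusted P = 5.15e-11), -1.24 over input (adjusted P = 1.52e-14) and -0.56 for IgG over input (adjusted P = 8.95e-09). Its Oct partners differed, with log2FC over IgG of 1.36 for Pou2f2 (Oct-2, adjusted P = 6.14e-12) and -1.23 for Pou2f1 (Oct-1, adjusted P = 7.39e-09). Pou2f1 overlaps Cd247 on the opposite strand, and its value is uncertain if strand was not used in counting.

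Irf4 (gene 16364, chromosome 13, 30749233 to 30766981, plus strand), the interferon regulatory factor needed for class switching and plasma cells, was the most abundant of the 10 in p-UPF1 libraries by CPM. It was at 1513, 1492 and 1455 CPM in p-UPF1, at 716, 702 and 590 CPM in IgG and at 518, 502 and 486 CPM in input. The groups did not overlap, and IgG lay between the other groups. The log2FC was 1.15 over IgG (SE 0.06, interval 1.03 to 1.27, adjusted P = 9.84e-12), 1.57 over input (adjusted P = 1.60e-13) and 0.42 for IgG over input (adjusted P = 1.73e-05).

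Irf8 (gene 15900, chromosome 8, 120736358 to 120756694, plus strand), its closest relative in B cells, rose by less. Irf8 was at 648, 641 and 649 CPM in p-UPF1, at 337, 336 and 338 CPM in IgG and at 421, 410.4 and 408 CPM in input. The p-UPF1 libraries were the highest and the IgG libraries the lowest, with no overlap. The log2FC was 0.94 over IgG (SE 0.03, adjusted P = 1.50e-13), with 0.64 over input (adjusted P = 1.79e-11), while IgG over input was -0.29 (adjusted P = 2.86e-06). The log2 ratio of Irf4 to Irf8 counts within a library was 0.28 ± 0.03 in input, 0.98 ± 0.16 with IgG and 1.20 ± 0.03 with p-UPF1 (SD, n = 3), so most of the shift from input was already present in IgG.

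Among the other interferon regulatory factors, Irf1, an interferon-induced activator, met both parts of the criterion. It was at 33.2 CPM in input, 50.4 with IgG and 279 with p-UPF1 on average, with a log2FC of 2.47 over IgG (adjusted P = 5.35e-17) and 3.07 over input. Irf5 and Irf2 fell, with -0.58 (adjusted P = 2.35e-09) and -0.65 (adjusted P = 4.81e-09) over IgG. The Irf4 partner Batf was 0.72 higher than in IgG on the log2 scale (adjusted P = 3.16e-10).

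Pax5 (gene 18507, chromosome 4, 44524748 to 44710694, minus strand), the paired-domain factor that commits cells to the B lineage, was higher in both precipitates than in input. It was at 192, 172 and 182 CPM in p-UPF1, at 253, 226 and 249 CPM in IgG and at 59.7, 58.1 and 56.3 CPM in input. The IgG libraries were the highest, and no groups overlapped. The log2FC of p-UPF1 was 1.65 over input (SE 0.05, adjusted P = 3.30e-14) but -0.42 over IgG (SE 0.05, adjusted P = 1.06e-06). IgG over input was 2.07 (SE 0.05, adjusted P = 2.70e-13), above that of 99.6% of all genes.

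Ikzf3 (gene 22780, chromosome 11, 98464610 to 98546031, minus strand), the Aiolos gene, had the same order of groups. It was at 507, 503 and 513 CPM in p-UPF1, at 617, 593 and 650.4 CPM in IgG and at 217, 217 and 211 CPM in input, with no overlap. The log2FC against input was 1.24 (SE 0.04, adjusted P = 2.63e-14), with -0.29 over IgG (adjusted P = 3.86e-06) and 1.53 for IgG over input (adjusted P = 2.70e-13), the last above 99.1% of all genes. Ikzf1, which encodes Ikaros, differed. It was at 679 CPM in input, 689 with IgG and 1087 with p-UPF1 on average, a log2FC of 0.66 over IgG (adjusted P = 6.29e-10) and 0.02 for IgG over input (adjusted P = 0.744). The log2 ratio of Ikzf3 to Ikzf1 counts was -1.66 ± 0.01 in input, -0.15 ± 0.15 with IgG and -1.10 ± 0.05 with p-UPF1 (SD, n = 3).

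For IgG over input as a whole, 4 factors were higher (Pax5, Ikzf3, Prdm1 and Irf4), 3 lower (Pou2af1, Irf8 and Spib) and 3 did not pass (Ebf1, Bcl6 and Bach2). Over all genes 18.2% were higher and 34.7% lower in IgG, with a median log2FC of -0.10, and that of the factors was 0.00. Pax5 and Ikzf3 stood apart from the other factors in this comparison, where the remaining 8 lay between -0.56 and 0.42.

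**Figure D3:**
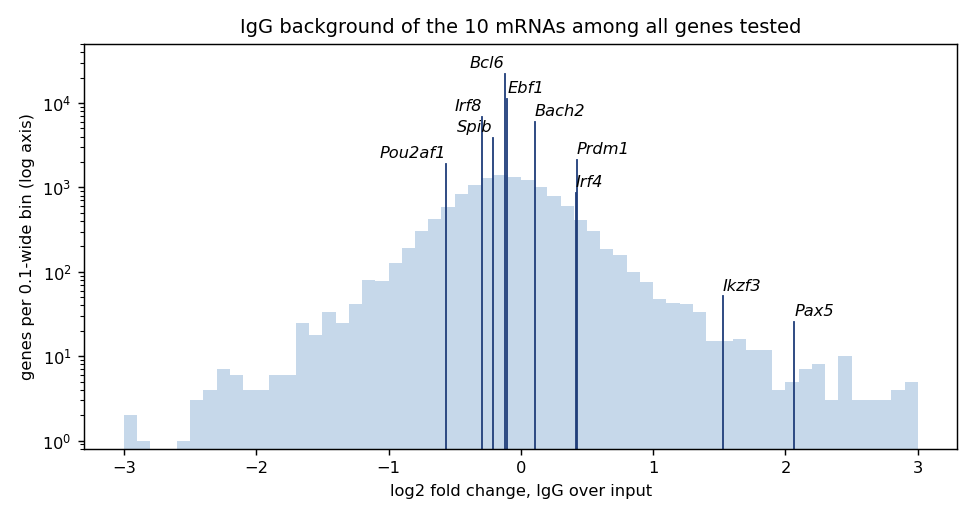
Histogram of the log2FC of IgG over input (x axis) over the genes tested with values between -3 and 3, in bins 0.1 wide with a log count axis; vertical lines mark the 10 factors and their height has no meaning. Pax5 (2.07) and Ikzf3 (1.53) lie in the upper tail, and the other factors lie between -0.56 and 0.42.

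**Figure D4:**
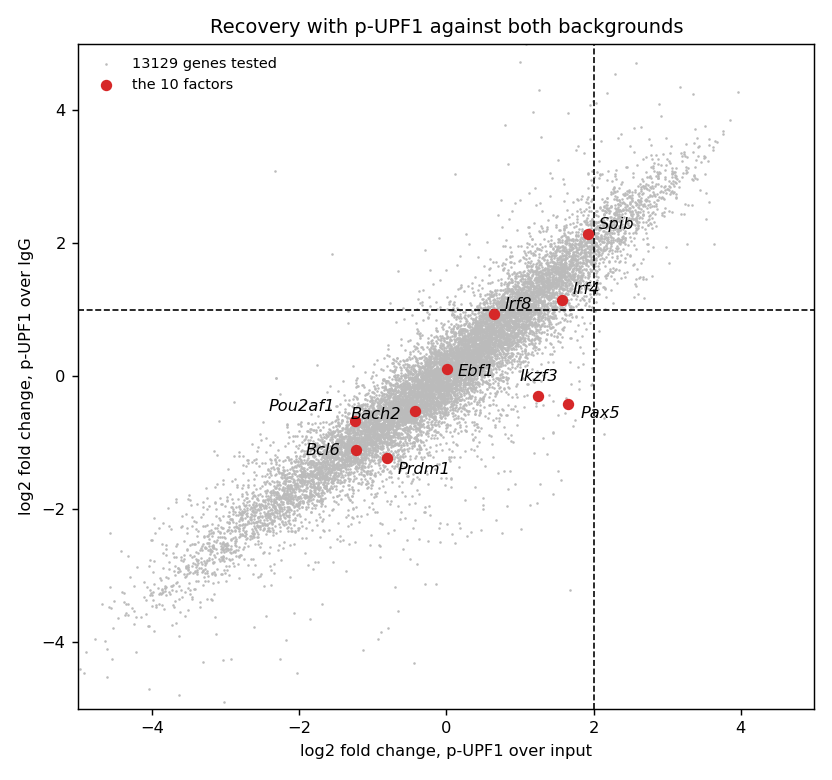
Log2FC of p-UPF1 over input (x axis) and over IgG (y axis) for genes tested (grey, the few beyond the axes not drawn) and the 10 factors (red); dashed lines mark the criterion minimums, 2 and 1. No factor lies in the upper right corner, Spib is nearest to it, and Pax5 and Ikzf3 lie below the main band of genes.

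Ebf1 (gene 13591, chromosome 11, 44618100 to 45008096, plus strand), which acts with Pax5 in early B cells, was close to level in the 3 groups. It was at 50.0, 50.4 and 49.5 CPM in p-UPF1, at 51.4, 49.0 and 38.3 CPM in IgG and at 48.2, 50.5 and 50.1 CPM in input. The groups overlapped in each comparison, and IgG library A was the lowest of all. The log2FC was 0.11 over IgG (interval -0.06 to 0.28, adjusted P = 0.209), 0.01 over input (interval -0.16 to 0.18, adjusted P = 0.918) and -0.10 for IgG over input (adjusted P = 0.309). Without IgG library C the value over IgG was 0.19 and passed the test (adjusted P = 0.0367), as it did at 0.16 with no low-count filter (adjusted P = 0.0318), which made 4 factors higher than IgG in either case. Without IgG library A it was -0.01. E proteins work with Ebf1. Of these, Tcf3 was 0.28 (adjusted P = 2.63e-06) and Tcf12 0.48 (adjusted P = 1.34e-06) above IgG on the log2 scale, while Tcf4 was at -1.26 (adjusted P = 4.37e-13).

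The 2 repressors of the plasma cell programme were both lower in p-UPF1. Bcl6 (gene 12053, chromosome 16, 23965050 to 23988866, minus strand), the zinc finger repressor that defines germinal centre B cells, was at 23.8, 23.3 and 23.8 CPM in p-UPF1, at 55.0, 50.8 and 46.8 CPM in IgG and at 56.7, 54.5 and 54.8 CPM in input. The p-UPF1 libraries lay far below the others, and IgG and input overlapped. The log2FC was -1.11 over IgG (SE 0.06, adjusted P = 6.04e-11), -1.23 over input (adjusted P = 1.13e-11) and -0.12 for IgG over input (adjusted P = 0.0992). Without IgG library C the last value was -0.19 and passed the test (adjusted P = 0.0109). Its corepressor genes Bcor and Mta3 were also lower than in IgG, by log2FC of -1.03 (adjusted P = 3.55e-11) and -0.66 (adjusted P = 3.86e-07). An exon of Bcl6 overlaps Gm31527 on the opposite strand.

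Bach2 (gene 12014, chromosome 4, 32238413 to 32586109, plus strand), which represses Prdm1 with small Maf proteins, was at 70.3, 64.1 and 63.8 CPM in p-UPF1, at 109, 93.1 and 83.1 CPM in IgG and at 89.6, 89.3 and 87.1 CPM in input. The p-UPF1 libraries were below all others, and the IgG libraries spread on both sides of input. The log2FC was -0.53 over IgG (SE 0.08, adjusted P = 7.71e-06), -0.42 over input (adjusted P = 7.80e-05) and 0.10 for IgG over input (adjusted P = 0.262). The last value turned to -0.02 without IgG library C, and was 0.18 and passed without IgG library A (adjusted P = 0.0119). Bach2 overlaps Bach2os on the opposite strand. Its paralogue Bach1 was at 40.8 CPM in input, 86.6 with IgG and 49.0 with p-UPF1 on average, with -0.82 over IgG (adjusted P = 1.11e-07), 0.27 over input (adjusted P = 0.0104) and 1.09 for IgG over input (adjusted P = 4.36e-08). The small Maf partners rose. Mafk met both parts of the criterion, with 2.48 over IgG (adjusted P = 4.07e-17) and 2.74 over input, and Mafg was at 1.15 over IgG (adjusted P = 2.84e-13) and 1.55 over input.

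Prdm1 (gene 12142, chromosome 10, 44437174 to 44528558, minus strand), which encodes the plasma cell repressor BLIMP-1, had the lowest log2FC of the 10 over IgG. It was at 9.74, 9.66 and 8.76 CPM in p-UPF1, at 23.8, 22.4 and 19.7 CPM in IgG and at 17.6, 17.0 and 14.8 CPM in input. No groups overlapped, with IgG highest and p-UPF1 lowest. The log2FC was -1.23 over IgG (SE 0.10, adjusted P = 6.26e-09), -0.81 over input (adjusted P = 1.52e-06) and 0.42 for IgG over input (adjusted P = 0.00138). Prdm1 also had the fewest reads, 208 to 464 per library, against 11100 to 34530 in Irf4 over the IgG and p-UPF1 libraries.

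**Figure D5:**
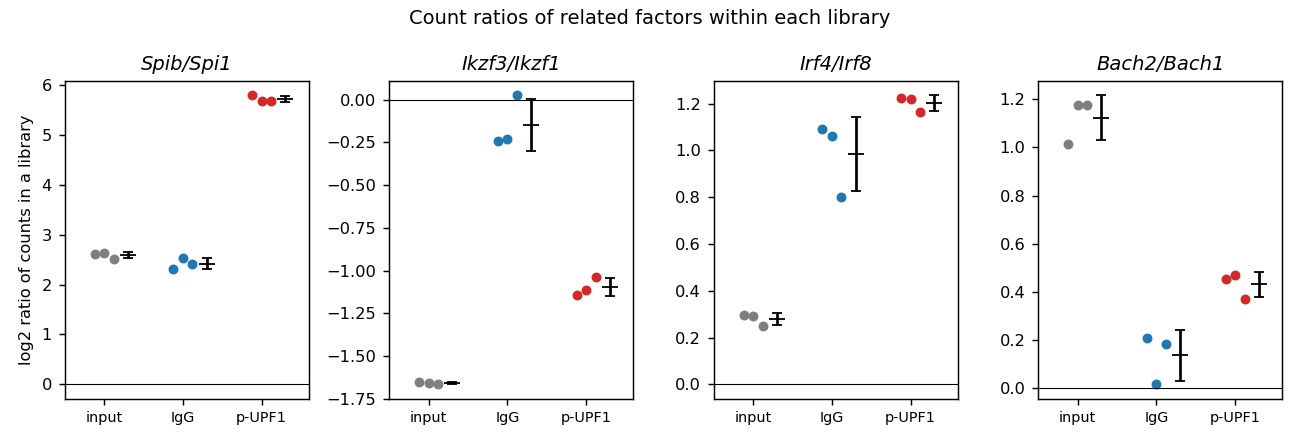
Log2 ratio of the counts of related factors (y axis, a separate scale in each panel) in each library of input, IgG and p-UPF1; points are libraries, and the horizontal mark with bars beside them is the mean ± SD (n = 3). Spib over Spi1 was 5.71 in p-UPF1 against 2.42 in IgG and 2.59 in input, and Bach2 over Bach1 fell from 1.12 in input to 0.14 with IgG and 0.43 with p-UPF1.

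The transcripts of the 10 factors were then compared by the features that favour NMD. Their annotated 3′ UTRs ran from 1073 bases in Bcl6 to 6749 bases in Pax5, and all 10 were above the median of 1016 bases over 11866 tested genes with annotated UTRs. Among the factors higher than in IgG, Irf8 had 1519 bases, Spib 1966 and Irf4 3309, and Bach2 had 5808 bases and a negative log2FC in both comparisons. Across all these genes, 3′ UTR length and log2FC over IgG had a Spearman rho of 0.325, given as a description since genes are not independent replicates. A junction over 50 bases after the stop codon was found in 0 of the 10 main transcripts and in 0.413% of all genes. Isoforms annotated as NMD substrates were present for Pax5 alone, 2 of its 20 isoforms, and for 29.4% of all genes.

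Upstream ATGs in the 5′ UTR were found in 4 of the 10 (Ebf1, Bcl6, Prdm1 and Bach2) and in 51.7% of all genes. Those of Bcl6 and Prdm1, the factors with the lowest log2FC over IgG, are shown with the ATG in capitals, 5′ to 3′ on the minus strand of GRCm38.
Bcl6 (chr16:23988672-23988692): tgcggagcaATGgtaaagccc
Bcl6 (chr16:23988597-23988617): gaagtggtgATGcaagaagtt
Prdm1 (chr10:44458534-44458554): cgcgggaggATGtggactggg
Prdm1 (chr10:44458517-44458537): tgggtggacATGagagaggct
In Bcl6 they open frames of 14 and 19 codons that end before the main start codon. In Prdm1 the upper ATG opens a frame of 6 codons, and the lower opens one of 30 codons that runs past the main start codon in another frame. The 4 factors with an upstream ATG had log2FC over IgG between -1.23 and 0.11, and the 6 without lay between -0.68 and 2.14. Over all genes the medians ran the other way, 0.13 with an upstream ATG (6134 genes) and -0.14 without (5732 genes). No test was made of these features.

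The other genes of these pathways were counted by list, against a background in which 40.4% of all genes were higher and 42.2% lower than in IgG, and nothing particular to a list is read from the counts. Of 25 tested relatives and partners of 26 listed, 10 were higher and 11 lower in p-UPF1 than in IgG, with a median log2FC of -0.12, and 4 did not pass. Relative to input, 11 were higher and 10 lower, with a median of 0.07. Irf1 and Mafk met the combined criterion, and Ikzf2 was not tested. Of the 25 other transcription regulators of the B lineage, 9 were higher and 14 lower than in IgG, with a median of -0.29, and 8 were higher and 14 lower than input, with a median of -0.39. In this list Nfatc2 (2.07, adjusted P = 7.40e-15), Nfatc1 (1.12, adjusted P = 5.07e-14) and Lef1 (0.96, adjusted P = 3.34e-10) had the highest log2FC over IgG among genes of at least 10 CPM. The growth regulator Myc (-1.62, adjusted P = 7.55e-16) and the Runt factors Runx3 (-1.24, adjusted P = 1.91e-13) and Runx1 (-1.02, adjusted P = 2.07e-09) had the lowest. The regulator that met the combined criterion was Id3, an inhibitor of E proteins named here after its values were seen, with 2.53 over IgG (adjusted P = 8.95e-08) at a mean of 8.71 CPM in p-UPF1.

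Genes of the plasma cell programme and of the Pax5-positive state were counted in the same way. Of 14 tested plasma cell programme genes of 17 listed, 6 were higher and 7 lower in p-UPF1 than in IgG, and the median was -0.08. Relative to input 6 were higher and 6 lower, with a median of -0.25, and no gene of the list reached a log2FC of 2. Genes are named here if their mean over all libraries was at least 10 CPM, and some genes below it changed by more. The surface receptors Slamf7 (1.44, adjusted P = 8.15e-15) and Tnfrsf13b (0.70, adjusted P = 4.16e-09) and the translocon subunit Sec61a1 (0.92, adjusted P = 3.53e-12) rose over IgG. Sub1 (-2.96, adjusted P = 9.40e-18), the elongation factor Ell2 (-1.004, adjusted P = 8.32e-13) and the endoplasmic reticulum protein gene Mzb1 (-0.91, adjusted P = 1.04e-10) fell. Of 15 B cell genes that Pax5 is known to activate or that mark the Pax5-positive state, 8 were higher and 5 lower than in IgG, with a median log2FC of 0.21. Relative to input 7 were higher and 7 lower, and the median had the opposite sign, -0.14. Ciita, the master regulator of MHC class II genes, rose from 300 CPM in IgG to 2374 CPM in p-UPF1, a log2FC of 2.98 (adjusted P = 1.60e-17), and met the combined criterion. Cd40 (1.88, adjusted P = 5.73e-15), the receptor for T cell help, rose as well. Ciita overlaps Dexi on the opposite strand, and its value is uncertain if strand was not used in counting. Cd79a, the Igα chain of the B cell receptor, was at -2.10 (adjusted P = 7.97e-16), the adaptor Blnk at -0.74 (adjusted P = 2.47e-11) and Cd72 at -0.53 (adjusted P = 1.95e-08).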

How the data were processed

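The authors deposited unnormalised counts of reads for each gene, with genes given as NCBI Gene identifiers. The submitters' processing notes name cutadapt, HISAT2, featureCounts and mm10, with versions not given in the sources used here. The kit was directional. Whether strand was used in counting RIP-seq reads is not stated, so genes that overlap on opposite strands are uncertain. Besides Bcl6, Bach2 and Pou2f1, this holds for Ciita, Tnfrsf13b, Cd72, Irf5, Mafg, Tcf4 and Csf1r among the genes named here. Reads carried no molecular identifiers, so counting error understates the true error. The methods describe replicates as independent biological replicates. Columns carry letters (A to C) where the labels carry numbers, and a column was tied to a group but not to a numbered sample.

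Of 27179 identifiers, 25275 matched a RefSeq symbol, and those without held 0.379% of counts. Positions are from RefSeq on GRCm38, and UTRs, stop codons and lengths from the main GENCODE M21 transcript of each gene. Low-count genes were removed with filterByExpr (minimum count 10, minimum total 15), which left 13129 genes. Counts were scaled by TMM factors and fitted with 3 groups, no covariate and 6 residual degrees of freedom (edgeR 4.0.16, R 4.3.3, prior count 0.125). Each contrast was tested two-sided by quasi-likelihood (glmQLFTest) with Benjamini-Hochberg adjustment over all tested genes, and SEs and 95% intervals were derived from the test statistic. CPM are given as mean ± SD of 3 libraries. The fit was tested on simulated data, where 83.7% to 100% of genes changed by 1 or 2 log2 units were recovered for p-UPF1 over IgG among 12797 genes. Few genes were changed in these data, and IgG and input had the same means. The recovery therefore says nothing about how well the scaling holds for the real libraries. Alternatives were other scalings and TMM references, other low-count filters, DESeq2 1.42.0, limma-voom (limma 3.58.1), a stricter threshold, the tested fold minimum (glmTreat), fits of only the groups compared, leaving out each library and, chosen after the data were seen, the column letter as a replicate block.

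All 10 factors were named, and from each gene list up to 3 genes with the highest and 3 with the lowest log2FC over IgG. These were taken among genes with an adjusted P under 0.05 and a mean of at least 10 CPM over all libraries. Relatives and partners were also named beside a factor. One item within this rule is left out of the text. The 10 genes, the lists and the tests were chosen with earlier results of these data known. Lists were counted and not tested as sets.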

Additional observations from a re-analysis of the deposited data

How the results depend on the processing

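By the methods, input was set aside from the lysate that then went to the p-UPF1 antibody or IgG, so libraries of different groups can share a lysate, but neither the methods nor the labels say which letters do. Deviations from the group means correlated by -0.0051 to 0.0542 over the 9 same-letter pairs, 0 of them over 0.1, and the fit without the block was kept, although in 13 of 18 comparisons a library correlated best with its own letter. With the letter as a replicate block, chosen after the data were seen, 3 factors were higher and 6 lower than IgG, 5 higher and 4 lower than input, and 4 higher and 3 lower for IgG over input. It changed no call of a factor, 0 factors met the combined criterion, and 822 genes did, against 820 without it. Scaling to equal mitochondrially encoded mRNA moved the median log2FC of all genes by 4.69 over IgG, 5.03 over input and 0.34 for IgG over input, and directions below are to be read against these shifts. Under it 10 factors were higher and 0 lower than IgG, 10 higher and 0 lower than input, and 7 higher and 1 lower for IgG over input, and 10 met the combined criterion, as did 12719 genes. Over IgG, Pax5 was then at 4.28, Bcl6 at 3.59, Prdm1 at 3.46, Bach2 at 4.16, Pou2af1 at 4.02 and Ikzf3 at 4.41, against a median gene of 4.66. Over input, Bcl6 was at 3.81, Prdm1 at 4.23, Bach2 at 4.62 and Pou2af1 at 3.80, against 5.00. For IgG over input, Ebf1 was at 0.25, Bcl6 at 0.23, Irf8 at 0.04998 and Spib at 0.13. The cause of the shift was not tested.

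With an IgG library as the TMM reference, and with no low-count filter, 1 factor (Spib) met the combined criterion, and apart from these and the mitochondrial scaling, 0 did under the remaining alternatives, leaving out each library included. Ebf1 changed sign over IgG with library size alone (-0.0498), with upper-quartile factors (-0.0248) and without IgG library A (-0.00747), and leaving out each library gave -0.00747 to 0.19. It passed the test over IgG with no low-count filter (0.16, adjusted P = 0.0318) and without IgG library C (0.19, adjusted P = 0.0367). Over input it changed sign with library size alone (-0.0374), with upper-quartile factors (-0.0579), without IgG library C (-5.35e-04) and without input library C (-0.0186), with values of -0.0186 to 0.0332 when each library was left out. For IgG over input it changed sign with library size alone (0.0124), an input library as TMM reference (0.00206), an IgG library (0.00440), only these groups fitted (0.00452) and without IgG library A (0.00758). Bach2 for IgG over input was -0.0181 without IgG library C, and passed the test without IgG library A (0.18, adjusted P = 0.0119) and with library size alone (0.22, adjusted P = 0.0173), among other settings. Bcl6 for IgG over input passed without IgG library C (-0.19, adjusted P = 0.0109). Apart from Ebf1 and from the mitochondrial scaling, the direction and call of each factor over IgG and over input held under every alternative computed for them (glmTreat was run for the combined criterion alone). Of IgG over input calls over all genes, 34.4% were higher with TMM, 52.6% with library size alone, 45.1% with upper-quartile factors, 50.8% with TMM referred to an input library and 51.2% with TMM referred to an IgG library. The number of libraries, 3 per group, limits the precision, and Prdm1 rested on 208 to 464 reads per library.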

Other observations

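Count ratios between pairs of the factors, chosen after the values were seen and given with no test, shifted between the groups in a way that no scaling of whole libraries can alter. The log2 ratio of Spib to Prdm1 counts was 4.06 ± 0.15 in input, 3.43 ± 0.16 with IgG and 6.79 ± 0.10 with p-UPF1 (SD, n = 3). That of Irf4 to Bcl6 was 3.18 ± 0.03 in input, 3.72 ± 0.07 with IgG and 5.97 ± 0.03 with p-UPF1. For Spib to Pou2af1 it was -2.24 ± 0.04 in input, -1.89 ± 0.06 with IgG and 0.92 ± 0.06 with p-UPF1, so the more abundant RNA of the pair by counts differed between p-UPF1 and the other groups. Pax5 to Ikzf3, the pair with high IgG values, was at -1.89 ± 0.03 in input, -1.35 ± 0.06 with IgG and -1.48 ± 0.07 with p-UPF1. These are ratios of counts and not of levels per length.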
